A study of Mus musculus with 2 samples.

Results

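The cells described here were 96 barcodes of the E17.5 coronal suture matrix that lacked an osteogenic or mesenchymal label and held at least 3 unique molecular identifiers (UMIs, one per captured RNA molecule) of *Crx*, *Otx2* and *Neurod1* together. They made up 1.10% of the 8767 E17.5 cells kept by the filters on depth, mitochondrial and hemoglobin UMIs (95% exact binomial interval 0.888% to 1.34%), and 4.96% of the 1937 kept cells without a label. *Crx*, *Otx2* and *Neurod1* encode transcription factors, and their levels chose the cells and are no result. At E15.5 the same rule found none (0 of 8117 kept cells, where 3 counts of the total would be a share of 0.037% and the exact upper limit is 0.0454%).

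The study profiled the coronal suture, the fibrous joint between the frontal and parietal bones of the skull, in wild-type C57/BL6 mouse embryos at E15.5 and E17.5, with 1 deposited matrix of 10x Genomics 3′ counts per stage. The E15.5 cells came from 10 pooled sutures, were dissociated in Collagenase II with Dispase, and dead cells were then depleted. The E17.5 cells came from embryos of 2 litters in 3 batches. Batch 1 held 10 sutures of litter 1, and batches 2 and 3 held 3 sutures each of litter 2. These cells were dissociated in Collagenase IV and sorted to remove debris, doublets and dead cells. Skin, brain and some of the meninges were peeled off before dissection. Sutures were cut out with scissors at E15.5, and at E17.5 as scalpel strips without the most apical and basal parts. The stages were also sequenced at different sites. Stage, dissection, enzyme, sorting, sequencing site and embryos differ together, so their parts in the E15.5 count of 0 cannot be told apart. With 1 sample per stage and no replicate, no test was run, and every interval covers counting error only.

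*Crx*, *Otx2* and *Neurod1* are shared by the photoreceptors of the retina, which turn light into a change of membrane current, and by the pinealocytes of the pineal gland, which make melatonin from tryptophan by way of serotonin. Mammalian pinealocytes do not sense light directly but keep a part of the phototransduction genes, and they receive their signal from the sympathetic nerves through adrenergic receptors. The pineal gland lies under the roof of the skull at the midline, and the retina lies in the eye. Neither tissue is named in the labels, which call the sample coronal suture.

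Few unlabelled cells lay near the limit of the rule. These values chose the cells, so they are no evidence that the cells stand apart. Among unlabelled cells 1790 held no UMI of the 3 genes, 49 held 1 and 2 held 2, just under the limit. At the limit 2 cells held 3, and above it 0 held 4, 3 held 5, 1 held 6 and 83 held at least 10. The sum ranged from 3 through a median of 20 to 107 in the 96 cells, and it was at most 2 in all 6830 labelled cells. *Neurod1* was found in 94 of the cells, *Crx* in 91 and *Otx2* in 86. UMIs of all 3 genes were present in 82 cells, of *Crx* and *Neurod1* alone in 9, of *Otx2* and *Neurod1* alone in 2, of *Otx2* alone in 2 and of *Neurod1* alone in 1. One further unlabelled barcode with at least 3 such UMIs fell outside the filters and was left out.

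The cells had a median depth near that of the other kept cells and were not spread evenly over the matrix. They held between 4077 and 47140 UMIs with a median of 12254.5, against a median of 11994 in the other kept cells, and a median of 3695 genes against 3266. The median mitochondrial share was 3.74% against 2.32%. After each cell was thinned to 3000 UMIs, the median number of genes was 1554 in the 96 cells and 1349 in the others. Barcodes of the E17.5 matrix carry a suffix from 1 to 3, and the sources used here do not say which batch a suffix stands for. Suffix 1 held 0 of the cells among 1530 kept, where 3 counts of the total would be a share of 0.196% and the exact upper limit is 0.241%. In suffix 2 there were 42 among 3602 (1.17%, 0.842% to 1.57%), and in suffix 3 there were 54 among 3635 (1.49%, 1.12% to 1.93%). The latter 2 intervals overlap, and suffix 1 lies below both of them.

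Stray UMIs of the rule genes followed the same pattern. Of the labelled cells, 0 of 1234 in suffix 1 held such a UMI, against 84 of 2770 (3.03%) in suffix 2 and 96 of 2826 (3.40%) in suffix 3. These labelled cells are osteogenic and mesenchymal by the authors' annotation, and their share is given as a background. The source of these UMIs was not tested. Doublet scores were high in 8 of the 96 cells (8.33%), against 6.47% and 6.08% of all kept cells in suffixes 2 and 3, shares that the percentile used as the limit largely fixes. Of the 96 barcode sequences, 4 also occurred in another suffix or at E15.5, where 94 kept barcodes were shared between the stages and 37 between suffixes in all.

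**Figure D1:**
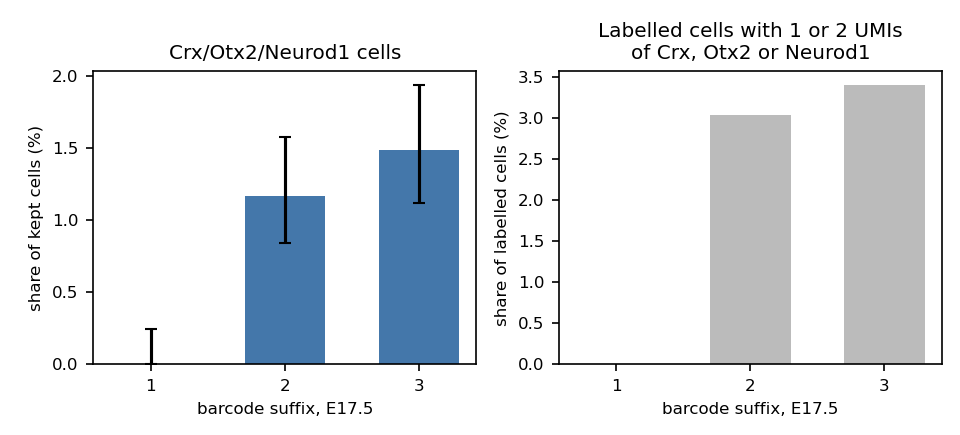
Share of kept E17.5 cells that met the rule (left, bars with 95% exact binomial intervals) and share of labelled osteogenic and mesenchymal cells with 1 or 2 UMIs of the 3 rule genes (right), for barcode suffixes 1 to 3. Both shares were 0 in suffix 1, and they were 1.17% and 3.03% in suffix 2 and 1.49% and 3.40% in suffix 3.

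Levels are given as CPM, the UMIs of a gene divided by all UMIs of a group of cells and scaled to 1e+06. A gene was called higher where its CPM in the 96 cells was at least 4 times that in all other kept E17.5 cells, with at least 30 UMIs in the 96 cells, and lower where the ratio was as far the other way with at least 30 UMIs expected in the 96 cells. Of 7429 genes with enough UMIs, 792 were higher (10.7%) and 830 lower (11.2%), so that 48.8% of the calls were higher. The median log2 ratio of all these genes was 0.378, and after the ratios were divided by their median, 631 genes were higher and 1029 lower (38.0% higher). These shares are the background for each list below, with a limit that the UMI minimum sets. Of the tested genes, 5688 had at least 30 UMIs expected from the other cells, and 96 of these were higher (1.69%) and 830 lower. The remaining 1741 passed only through the UMIs of the 96 cells, and 696 of them were higher. A gene low in other cells can reach the minimum only by being high in the 96 cells, so for such genes the counts by list say how many were detected and support no direction, and the values of the single genes are the description. All ratios in the text are on the CPM scale without that division, unless stated.

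Calls were also made in suffixes 2 and 3 alone. With suffix 2 alone 486 of 4482 tested genes were higher and 452 lower, and with suffix 3 alone 560 and 607 of 5274. In both suffixes 436 of 4406 were higher and 399 lower. For comparison, 10.7% of the genes tested over all cells were higher and 11.2% lower. Over all cells, 474 genes were higher and had at least 30 UMIs in each suffix. All 474 had CPM values in the 2 suffixes within 2-fold of each other. That choice leaves out genes with few UMIs in 1 suffix, such as *Nrl* at 18.6 CPM in suffix 2 and 41.5 in suffix 3. Like levels were therefore in part set by the choice. Of 4406 genes tested in both suffixes, 0 were higher in 1 and lower in the other. The suffixes share the dissected tissue and may share a litter and embryos, so they are no biological replicates.

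Many transcription factors of photoreceptors and pinealocytes were detected. Without the rule genes, 13 of 21 listed factors had at least 30 UMIs in the 96 cells, all of them passing only through those cells and called higher, and *Mef2c*, the only factor expected to reach 30 UMIs from the other cells, was lower. *Pax6*, which opens eye and pineal development, was at 122 CPM (105 to 140) against 0.109. *Lhx4*, a LIM factor of photoreceptors and pinealocytes, was at 136 CPM (118 to 155) against 0.151. Both had UMIs in most of the cells, 67.7% and 68.8%, and in at most 0.249% of labelled cells.

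Factors tied to 1 of the 2 tissues or to 1 type of photoreceptor were also found. *Lhx9*, needed for the pineal gland, was at 54.7 CPM (43.8 to 67.5) against 0.0419, with 5 UMIs in all other cells. *Rax*, an eye field and pineal factor, was at 69.8 CPM against 0.193, and *Isl2* at 124 against 0.201. *Nrl*, which directs precursors to the rod fate, was at 31.4 CPM (23.3 to 41.5) with UMIs in 30.2% of the cells, against 0.0502 in the others. *Nr2e3*, a rod factor downstream of *Nrl*, had 8 UMIs, too few to be called. The nuclear receptors *Rxrg* and *Thrb*, which act in cone differentiation, were at 302 and 50.9 CPM, 82.1 and 56.8 times the level in other cells.

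*Neurod4* was at 203 CPM against 0.276, *Insm1* at 64.8 against 0.134, *Rorb* at 110 against 2.62, *Isl1* at 34.6 against 0.0837 and *Bhlhe22* at 22.6 against 0.0754. *Isl1* differed from the rest of the list in its spread, with UMIs in 14.6% of the cells only and up to 11.5 UMIs per 10,000 in 1 of them. *Mef2c*, a factor of muscle, vessel, bone and microglial cells as well as of photoreceptors, was lower, at 17.6 CPM (11.7 to 25.4) against 216. *Onecut1* (1 UMI), *Bsx* and *Sall3* (0 UMIs) were not measured well enough to be called, nor were *Prdm1* and *Tbx2*.

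The first steps from tryptophan to melatonin were high, and the last were at a few UMIs. Of 13 listed genes, 8 had at least 30 UMIs. The 5 called higher passed only through the 96 cells, and the 3 expected from other cells were neither higher nor lower. *Tph1* (chr7:46644641-46672537 in GRCm38), which hydroxylates tryptophan as the first step of serotonin synthesis outside neurons of the brain, ran from 0 through a median of 14.3 to 59.9 UMIs per 10,000 across the 96 cells. Its summed level was 1545 CPM (1485 to 1607) against 3.12 in the other cells, a ratio of 496. *Tph1* UMIs were present in 97.9% of the cells (95.8% after thinning) against 0.732% of thinned labelled cells, and the groups overlapped. The lowest value above 0 in the 96 cells was 1.46 UMIs per 10,000, which 37 of the 8671 other kept cells reached, the highest of them at 13.8, under the median of the 96 cells.

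*Gch1*, the entry enzyme for the cofactor tetrahydrobiopterin, had a median of 8.06 and a highest value of 32.6 UMIs per 10,000, and a level of 828 CPM against 2.54. *Ddc*, which decarboxylates 5-hydroxytryptophan to serotonin, had a median of 2.38 and was at 285 CPM against 4.57. Its UMIs were found in 85.4% of the cells. The other cofactor enzymes were less far apart: *Pts* was at 116 CPM against 33.3 and *Qdpr* at 117 against 38.3, both under the 4-fold limit, and *Spr* was at 48.4 against 73.8.

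*Aanat*, which acetylates serotonin and sets the nightly rate of melatonin synthesis, had 15 UMIs in 10.4% of the cells, or 9.43 CPM (5.28 to 15.6), against 3 UMIs in all other cells. *Asmt*, the methyltransferase of the last step, had 4 UMIs. Neither reached 30 UMIs, so no call was made. The adrenergic receptors *Adrb1* and *Adra1b* were at 157 and 124 CPM against 0.486 and 8.75, each with UMIs in 65.6% of the cells. *Drd4* had 5 UMIs, *Slc18a2* 1 and *Slc18a1* 0.

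Genes of the phototransduction cascade were present in part. Of 32 listed genes 12 had at least 30 UMIs in the 96 cells and 8 had 0. Of the 10 called higher, 9 passed only through the 96 cells, and of the 3 expected from other cells *Gngt2* was higher and *Gnb1* and *Guca1a* were not called. *Gnb3*, the transducin beta subunit of cones, bipolar cells and pinealocytes, ran from 0 through 13.2 to 28.1 UMIs per 10,000 and was at 1297 CPM (1242 to 1355) against 3.23. *Sag*, the arrestin that ends the signal of an opsin, was at 679 CPM against 9.62 with UMIs in 85.4% of the cells. *Pdc*, phosducin, which binds transducin beta-gamma, was at 155 CPM against 0.268.

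*Pde6g*, the inhibitory subunit of the cyclic GMP phosphodiesterase, varied more between cells than *Gnb3*. Its quartiles were 1.75, 5.69 and 12.7 UMIs per 10,000, with 0 in the lowest and 45.2 in the highest cell, whereas those of *Gnb3* were 8.35, 13.2 and 17. The catalytic subunits were low by contrast in UMIs: *Pde6c* of cones had 29 UMIs, just under the minimum, against 1 in all other cells, *Pde6b* of rods had 9 and *Pde6a* had 1.

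*Cngb3*, the modulatory subunit of the cone cyclic nucleotide gated channel, was at 169 CPM (149 to 190) against 9 UMIs in all other cells, a ratio of 2236. Its pore subunit *Cnga3* had 7 UMIs, and the rod subunits *Cnga1* and *Cngb1* had 0 and 11. The cone and the rod transducin alpha genes differed likewise: *Gnat2* was at 42.8 CPM against 0.31, and *Gnat1* had 1 UMI. The gamma subunits *Gngt2* of cones and *Gngt1* of rods were at 291 and 44.6 CPM against 23.8 and 0.0837. *Gngt2* was also at 211 CPM in the endothelial cells described below.

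The cone opsin genes were at 0. *Opn1sw* and *Opn1mw* had 0 UMIs, as had *Opn4*, which encodes melanopsin, and this at 1590163 summed UMIs means a level too low to be seen at this depth. *Rcvrn*, *Pde6h*, *Guca1b* and *Gucy2f* were also at 0, *Grk1* had 4 UMIs and *Arr3*, the cone arrestin, 7. *Gucy2e*, a photoreceptor guanylate cyclase, was at 21.4 CPM against 0.1 and *Rgs9*, which speeds the shut-off of transducin, at 27 against 0.201. The 2 measured genes within the limit were *Gnb1*, used by most cells, at 282 CPM against 169 and *Guca1a* at 19.5 against 43.5.

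**Figure D2:**
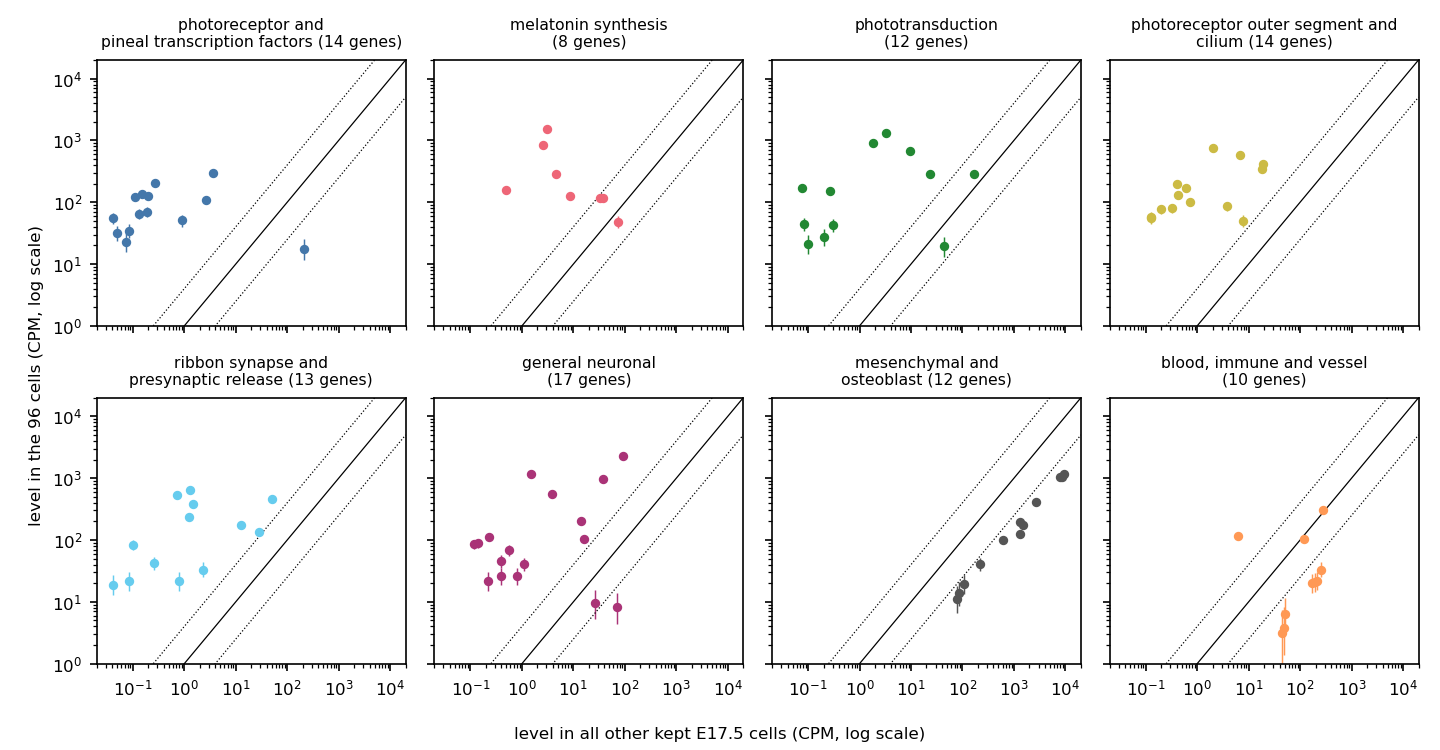
Level of 100 listed genes in the 96 cells against all other kept E17.5 cells, in CPM on log axes, 1 panel per list, with 95% exact Poisson intervals of the vertical values. The solid line marks equal levels and the dotted lines a 4-fold difference. All 12 mesenchymal genes lie below the lower dotted line. Points at the left of a panel could be shown only where the 96 cells held at least 30 UMIs, so their place above the upper line is largely set by the choice of genes.

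Genes of the photoreceptor outer segment, where light is captured, and of its connecting cilium had at least 30 UMIs in the 96 cells in 14 of 25 listed cases. All 14 were called higher, 13 of them passing only through the 96 cells, while *Unc119* alone was expected to pass from the level in other cells. *Abca4*, the transporter that clears retinal from disc membranes, had a median of 7.32 and a highest value of 16.3 UMIs per 10,000, with UMIs in 99% of the cells and a level of 767 CPM (724 to 811) against 2. *Tulp1*, a carrier of proteins to the outer segment, was at 584 CPM against 6.83. *Rpgrip1* of the connecting cilium was at 340 CPM against 18.4, and *Unc119*, a chaperone of lipid-bearing transducin, at 410 against 19.1.

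*Rbp3*, the retinoid carrier between photoreceptors and pigment epithelium that pinealocytes also make, was at 200 CPM (179 to 223) against 0.402. *Aipl1*, the chaperone of the phosphodiesterase, was at 132 against 0.427. *Mpp4* was at 171 CPM, *Prom1* at 101, *Fam161a* at 85.5, *Impg2* at 79.2, *Cdhr1* at 76.7 and *Crb1* at 54.7. The disc rim genes *Prph2* and *Rom1* were at 57.2 and 50.3 CPM against 0.126 and 7.69. Other outer segment genes were at a few UMIs, among them *Rp1* with 1 and *Rdh12* with 1.

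Promoters of these genes are shown because CRX, 1 of the factors that chose the cells, is known to bind the letters TAATCC, read GGATTA on the other strand. The gene sets and the letters were chosen after the levels had been seen. In the RefSeq windows from 250 bases before to 50 after a start site (GRCm38.p6), the letters were found on either strand in 8.14% of all 27025 genes and in 7.3% of the tested genes. They were found in 11.7% of the higher genes with a window (70 of 598) and in 6.19% of the lower genes. Of the higher genes of the melatonin, phototransduction and outer segment lists, 25 of 29 matched a window and 10 of the 25 held the letters (40%). By list these were 4 of 6 phototransduction, 6 of 14 outer segment and 0 of 5 melatonin genes. Among higher genes of other lists, 2 of 10 transcription factor, 3 of 9 synapse and 2 of 12 general neuronal genes held them. Of the 22 genes with the largest ratios (limits given below), rule genes left out, 17 matched a window and 1 held the letters (5.88%). The letters CAGATG, a form of the E-box that NEUROD1 can bind, were found on either strand in 19.2% of all genes, 15.7% of higher and 19.2% of lower genes. They were found in 12% of the 25 melatonin, phototransduction and outer segment genes.

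In all 10 windows with a match the letters read GGATTA on the strand of the gene. The first match of each window lay 19 to 118 bases before the start site. The same letters on that strand occur in 3.9% of all windows. The 120 bases before the start site are printed 5′ to 3′ on the strand of the gene for 5 of the genes described above, with the match in capitals.
Sag, chr1:87803560-87803679, plus strand: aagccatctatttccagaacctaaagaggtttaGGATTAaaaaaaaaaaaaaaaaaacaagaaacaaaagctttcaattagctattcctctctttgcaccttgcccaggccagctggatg
Gnat2, chr3:108092946-108093065, plus strand: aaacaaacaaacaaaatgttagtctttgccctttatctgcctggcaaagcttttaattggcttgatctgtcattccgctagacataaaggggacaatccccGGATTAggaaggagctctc
Abca4, chr3:122044340-122044459, plus strand: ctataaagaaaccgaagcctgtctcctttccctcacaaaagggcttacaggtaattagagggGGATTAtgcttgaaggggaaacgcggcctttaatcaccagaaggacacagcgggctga
Rbp3, chr14:33953883-33954002, plus strand: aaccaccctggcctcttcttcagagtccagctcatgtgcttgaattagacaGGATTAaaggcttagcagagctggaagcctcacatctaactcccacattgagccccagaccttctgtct
Aipl1, chr11:72037510-72037629, minus strand: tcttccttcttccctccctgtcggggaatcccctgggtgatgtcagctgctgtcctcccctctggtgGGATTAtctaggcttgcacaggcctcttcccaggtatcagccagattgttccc
The first base of the match lies 87 bases before the start in *Sag*, 19 in *Gnat2*, 58 in *Abca4*, 69 in *Rbp3* and 53 in *Aipl1*, which has another match 10 bases after the start. A match is a description of letters, and binding was not measured.

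Genes of synaptic release, which photoreceptors and pinealocytes organise around ribbons, had at least 30 UMIs in the 96 cells in 13 of 24 listed cases. All 13 were called higher, 11 of them genes that passed only through the 96 cells, with *Vamp2* and *Ctbp2* as the others. *Snap25*, a fusion protein of synaptic vesicles, had a median of 6.41 UMIs per 10,000 and was at 638 CPM (600 to 679) against 1.29. *Cplx3*, a complexin of ribbon synapses, was at 537 CPM against 0.72, and *Cplx4* at 83 against 0.1. *Vamp2* was at 464 CPM against 50, *Syp* at 381 against 1.5 and *Stx3*, the syntaxin of ribbon synapses, at 240 against 1.22. *Ctbp2*, whose RIBEYE form builds the ribbon, was at 136 CPM against 28, a ratio of 4.84 that was 3.73 after division by the median ratio. *Bsn* had 13 UMIs, *Pclo* 15 and *Slc17a7* 9, whereas the other vesicular glutamate transporter, *Slc17a6*, was at 258 CPM (234 to 285) against 0.385.

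Of 24 general neuronal genes 15 had at least 30 UMIs in the 96 cells and were called higher, 13 of them only through those cells. Of the 4 expected from other cells *Map1b* and *Tubb2b* were higher, *Gap43* was lower and *Uchl1* was not called. *Map1b*, a microtubule protein of growing neurites, was found in all 96 cells, from 4 through 23.9 to 64.2 UMIs per 10,000, and was at 2273 CPM against 91.4. *Chgb*, a granin of secretory granules, was at 1149 CPM (1097 to 1203) against 1.51, *Tubb2b* at 984 against 37.2 and *Map2* at 556 against 3.81. *Dcx* of young neurons was at 84.9 CPM against 0.117. *Gap43* was at 8.18 CPM against 68.9, *Uchl1* was at 9.43 against 26.3, *Stmn2* had 8 UMIs, and *Nefl*, *Nefm* and *Elavl3* had 0. The neurofilament gene *Ina* was at 67.9 CPM against 0.569, with UMIs in 54.2% of the cells.

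**Figure D3:**
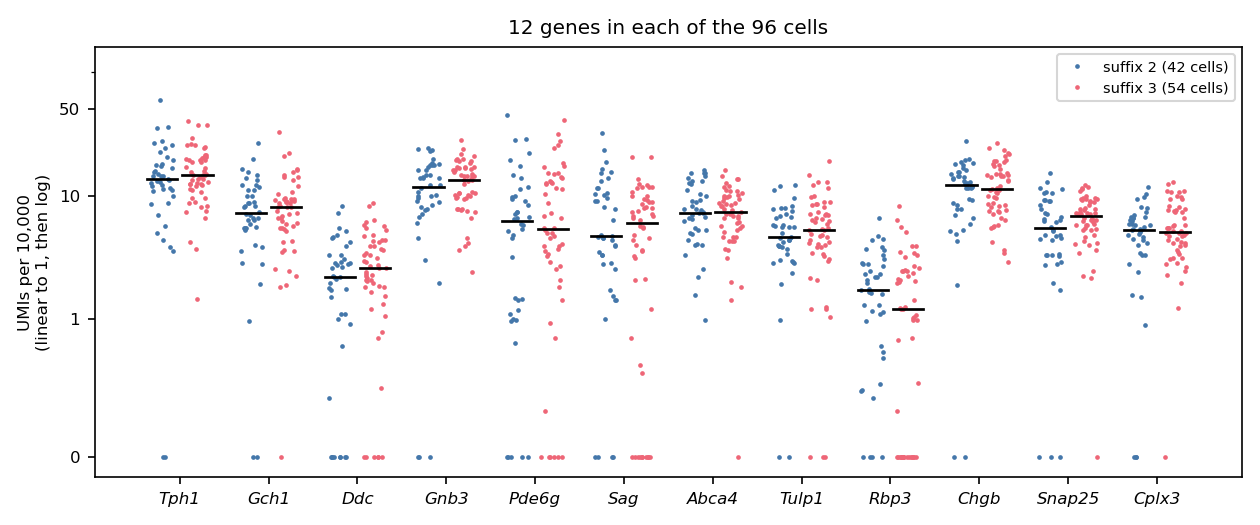
UMIs per 10,000 of 12 genes in each of the 96 cells (1 point per cell, axis linear to 1 and logarithmic above), by barcode suffix, with the median as a bar. The medians of *Tph1* were 13.6 in suffix 2 and 14.7 in suffix 3, and *Pde6g*, *Sag*, *Ddc* and *Rbp3* were at 0 in more cells than *Chgb* or *Abca4*.

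UMIs of the melatonin route and of photoreceptor genes were found in the same cells. Of the 96 cells, 92 held UMIs of *Tph1* and of at least 1 of *Pde6g*, *Sag* and *Pdc* (95.8%), against 32 of 6830 labelled cells (0.469%), and 83 held both *Tph1* and *Pde6g*, against 3 labelled cells. Taken singly, *Tph1* UMIs were present in 3.13%, *Sag* in 11.8% and *Pde6g* in 2.39% of labelled cells, whose median depth was 12301.5 UMIs. UMIs of all of *Tph1*, *Gnb3*, *Chgb* and *Gch1* were present in 92 cells and of 3 of these genes in 2 cells. The same count of at least 3 was reached by 0 labelled cells, 2 other kept E17.5 cells and 0 kept E15.5 cells. All genes counted in this paragraph were high in the summed 96 cells and low in the other kept E17.5 cells. They were chosen with earlier results of these data known. The contrasts with labelled and other cells therefore follow largely from the choice of genes and are no separate evidence that the cells stand apart. The counts within the 96 cells describe only how often these UMIs occurred together. The cone opsins were at 0 UMIs and the last enzymes of the melatonin route at a few. Whether the cells came from the retina or the pineal gland was not tested, and they are called here by the genes that chose them.

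A few cells stood apart from the rest. The 2 cells whose rule UMIs were all *Otx2*, with 3 and 9 of them, had 0 UMIs of *Tph1*, *Gnb3*, *Chgb* and *Gch1*, although they held 9992 and 10006 UMIs. They carried 49 and 13 UMIs of *Ptn*, and 1 of them held 24 UMIs of 5 cell cycle genes. A further cell, with 13 UMIs of *Crx* and 112 of *Tph1*, held 76 cell cycle UMIs, and the other 94 cells held at most 4. One cell held 291 of the 350 *Col2a1* UMIs and 121 of the 174 *Col9a3* UMIs, beside 12 of *Tph1*, and another held 111 of the 133 *Ttr* UMIs. Without the 2 *Otx2*-only cells, 793 genes were higher and 843 lower, and without the *Col2a1* cell 788 were higher and 860 lower.

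The cartilage collagens *Col2a1*, *Col9a3*, *Col9a2* and *Col11a1* were therefore among the 10 genes with the largest variance over mean, through 1 cell that held 60.6% to 83.1% of their UMIs. Of the others in that group, *Malat1*, a nuclear long RNA, ran from 3.15 through 378 to 993 UMIs per 10,000, and *Meg3*, another long RNA, from 0.863 through 68.5 to 192. *Actb*, *Tmsb4x* and *mt-Co1* were present in all 96 cells, and *Ttr* completed the group.

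Few genes of neighbouring tissues had enough UMIs. Of 20 genes of other retinal cell types, 2 had at least 30 UMIs, both only through the 96 cells, *Mitf* at 36.5 CPM against 5.22 and *Onecut2* at 20.8 against 0.159, and 11 were at 0, among them *Rpe65* of the pigment epithelium, *Pou4f2* and *Atoh7*. Of 14 genes of forebrain and peripheral neurons, *Slc17a6* alone was called and 9 were at 0, *Neurod6*, *Gad1* and *Gad2* included. Of 8 choroid plexus genes, *Ttr* was called higher through the single cell above (6.73 CPM in suffix 3, which does not hold that cell) and *Aqp1* lower (13.2 CPM against 76.7).

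Glial and progenitor genes were mixed. Of 12 glial genes 4 had enough UMIs, of which 2 were higher, only through the 96 cells, and 1 lower. *Fabp7*, a fatty acid binding protein of radial glia, was at 227 CPM (204 to 252) against 7.53, *Slc1a3* was lower (2.52 against 35.8) and *S100b* was at 12 against 40.7. Of 14 progenitor and cell cycle genes, *Btg2*, an antiproliferative gene, was higher at 719 CPM against 163, a ratio of 4.41 that was 3.39 after division by the median ratio and 3.95 by the mean of the CPM of each cell. *Hes1*, *Top2a*, *Cdk1* and *Mki67* were lower, *Top2a* at 34 CPM against 158.

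Mesenchymal and osteoblast genes were lower in 12 of 12 cases, with CPM 5.37 to 10.8 times higher in the other cells. *Col1a1*, the main bone collagen gene, ran from 1.35 through 9.83 to 79.8 UMIs per 10,000 and was at 1157 CPM (1105 to 1211) against 9242. It was at 859 CPM in glial, 1190 in endothelial and 1647 in macrophage cells, so the level in the 96 cells lay within the range of those 3 groups. *Ibsp*, a bone matrix gene, was at 124 CPM against 1335, with 92.5, 120 and 146 in those 3 groups. *Runx2* was at 11.3 CPM against 78.8 and *Sp7* at 19.5 against 105. The genes with the lowest ratios among those of at least 500 CPM in other cells were *Ibsp*, *Sfrp2*, *Vim*, *Dcn*, *Sparc*, *Col1a1*, *Aspn*, *Fstl1*, *Igf2* and *S100a10*, and *Vim*, the intermediate filament of mesenchyme and glia, was at 197 CPM against 1718.

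Blood, immune and vessel genes were lower in 7 of the 9 cases expected to reach 30 UMIs from other cells. The complement genes *C1qa*, *C1qb* and *C1qc* were at 20.8, 33.3 and 22 CPM, near the 19.6, 28.2 and 20.8 CPM of labelled cells. *Hbb-bs*, a hemoglobin gene, was at 306 CPM against 281 in other cells, a ratio of 1.09 that was 0.838 after division by the median ratio. *Kdr*, the VEGF receptor of endothelium, was higher, at 116 CPM (100 to 134) against 6.32. *Kdr* UMIs were present in 57.3% of the cells, and 49 cells had *Kdr* with no UMI of the endothelial genes *Cdh5*, *Pecam1* and *Emcn*, which had 1, 3 and 2 UMIs in all 96 cells.

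The 96 cells were also set beside 3 groups of unlabelled E17.5 cells chosen by marker sums, 32 glial, 123 endothelial and 581 macrophage cells. Of the genes with enough UMIs, 722 were higher over glial (9.49%), 826 over endothelial (10.8%) and 1025 over macrophage cells (13.6%), and 837 (11%), 937 (12.2%) and 915 (12.1%) were lower. Over all 3 groups at once, 406 genes were higher. The genes with enough UMIs differed between the groups (7612, 7670 and 7543), so no single share stands beside that count. Here too, genes low in the 3 groups could pass only through the 96 cells. *Tph1* was at 2.98, 4.91 and 2.39 CPM in the 3 groups in that order, and *Chgb* at 0, 2.46 and 1.19. *Gch1* was at 2.98, 18.4 and 9.11 CPM, so the endothelial and macrophage cells held more of it than the labelled cells with 1.65. *Fabp7* was at 817 CPM in glial cells, above the 96 cells. Of the 96 cells, 15 also met the endothelial marker sum, which counts *Kdr*, 2 met the glial and 0 the macrophage sum.

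**Figure D4:**
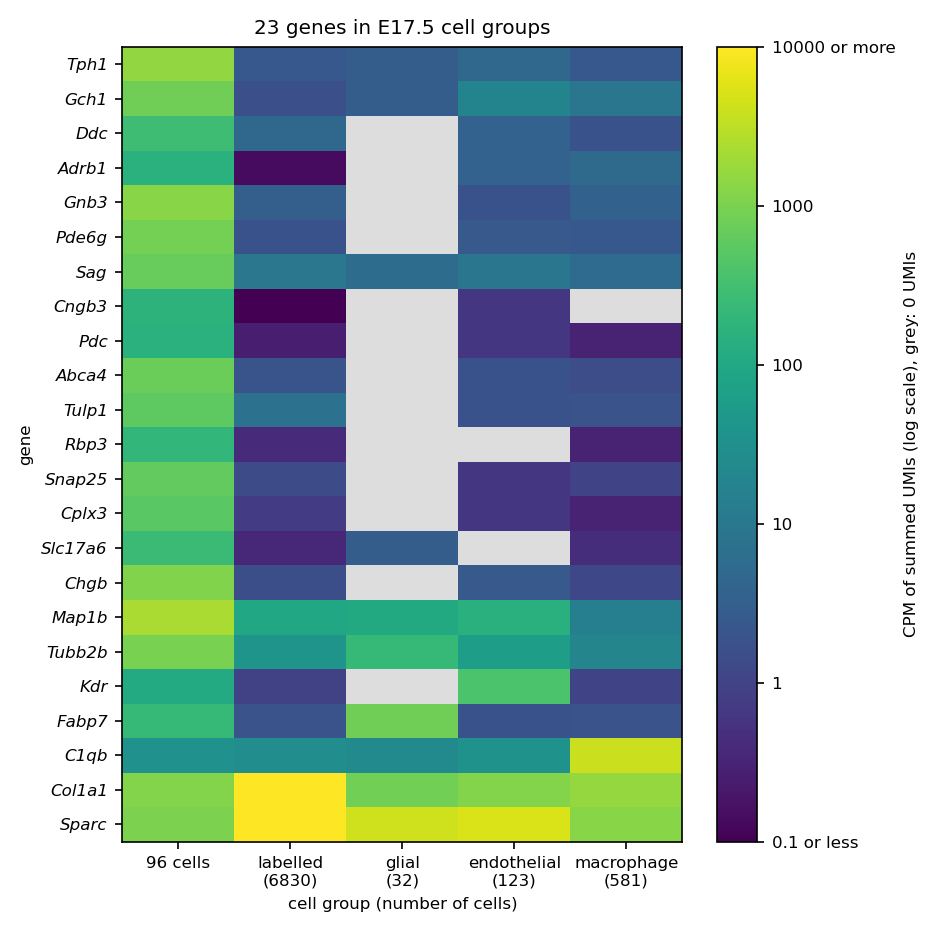
CPM of 23 genes (rows) in the 96 cells, in the 6830 labelled osteogenic and mesenchymal cells and in 3 unlabelled groups chosen by marker sums (columns), on a log color scale with grey for 0 UMIs. *Tph1* was at 1545 CPM in the 96 cells and under 5 in each other column, *Fabp7* was highest in glial, *Kdr* in endothelial and *C1qb* in macrophage cells, and *Col1a1* in labelled cells.

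The genes looked up at E15.5 ran from 0 to 24 CPM. *Gnb3* had 4 UMIs over 8117 cells, *Cngb3* and *Slc17a6* 1 each and *Rbp3* 0. *Tph1* was at 3.86 CPM (3.44 to 4.31) with at most 7 UMIs in a cell, and *Sag* and *Tulp1* were at 24 and 9.21 CPM. *Sag* UMIs were present in 1592 of the 8117 cells. *Gch1*, *Ddc* and *Pax6* were at 4.59, 4.23 and 0.98 CPM. *Tph1*, *Sag*, *Tulp1*, *Gch1* and *Ddc* thus had a low level in E15.5 sutures without any cell that met the rule. The other genes named here were at 0 to 0.98 CPM. The median depth at E15.5 was 8820 UMIs per cell.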

How the data were processed

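Suture cells were captured with 10x Genomics 3′ v2 reagents, and reads were counted with Cell Ranger against mm10 (version 3.1.0 in the file header at E15.5). The authors deposited raw UMI counts per gene and barcode, the E17.5 matrix as an aggregate of separately counted batches, and a table that assigns 6830 E17.5 cells to 15 osteogenic and mesenchymal clusters, in which the percent columns (mitochondrial, Hbb, Hba) and the cell cycle score columns deposited by the authors were not used for any result. The methods state default settings for the aggregation, under which Cell Ranger brings batches to a like depth of mapped reads; the matrix itself does not record this.

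Kept barcodes had at least 1000 UMIs and 1000 genes, no more than 7.5% of UMIs from mitochondrial genes, and no more than 3% from Hbb and 3% from Hba genes. UMIs were summed over cells and given as CPM with exact Poisson intervals, and shares of cells with Clopper-Pearson intervals, at 95%. Of a gene with 0 UMIs in a group, 3 counts stood for the level in ratios. Glial cells needed 5 UMIs over a set of markers that includes *Sox10*, *Cdh19* and *Foxd3*, endothelial cells 5 of *Cdh5*, *Pecam1*, *Emcn* and *Kdr*, and macrophages 10 of *C1qa*, *C1qb* and *C1qc*. Cells were thinned to 3000 UMIs where stated. Scrublet (in scanpy 1.11.5, expected rate 0.06) was run in each suffix; its own threshold called 41 of 8767 cells (0.468%), too few to be of use, so scores from the 94th percentile of a suffix upward counted as high (558 cells). Python 3.11.15, numpy 2.4.6, scipy 1.17.1 and pandas 2.3.3 were used, and the calculations were tested on simulated data.

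The 96 cells and the 14 gene lists (248 genes) were chosen with earlier results of these data known, and no list is independent evidence. Named genes are all list genes, the 25 with the largest ratio among genes with at least 100 UMIs in the cells and a UMI in 25% of them, the 10 with the lowest ratio among genes of at least 500 CPM in other cells, and the 10 with the largest variance over mean among thinned cells. *Ptn* was named after its values were seen. No p-value was computed, because there is 1 sample per stage and cells are not replicates. The alternatives were other limits of the rule and the filters, of fold and UMIs, other comparison cells, the mean of CPM per cell, high doublet scores left out and each suffix left out. The division by the median ratio and the removal of the *Otx2*-only cells and of the *Col2a1* cell were added after seeing the data. Values of some listed genes are not reported here.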

Additional observations from a re-analysis of the deposited data

How the results depend on the processing

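The number of cells was 79 to 98 under the other limits of the rule and filters, the lowest with at most 5% mitochondrial UMIs. Leaving out 1 suffix gave 42 to 96 cells, 494 to 791 higher and 464 to 822 lower genes; the lowest values were those without suffix 3. At a 2-fold limit 2018 genes were higher and 1429 lower, and at 8-fold 477 and 217. A minimum of 100 UMIs, with 3219 genes tested, left 352 higher and 381 lower, and a minimum of 3 gave 1742 and 1509. The higher genes of the transcription factor, melatonin, phototransduction, outer segment, synapse and neuronal lists numbered 70 of 139 and ranged from 48 to 95 over all alternatives. Of the list genes, 69 had UMIs in at least 50% of the cells, 26 after thinning to 3000 UMIs and 70 in the 92 cells with at least 5000 UMIs, so shares depend on depth. Mesenchymal genes were lower in 12 of 12 cases under every alternative but the 8-fold limit, which left 3. No paired analysis was possible because there is 1 sample per stage.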

Other observations

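Of 12 listed clock genes 4 had enough UMIs. *Arntl* was higher at 24.5 CPM (17.4 to 33.5) against 3.52, *Bhlhe40* lower at 3.14 against 31.5, and *Clock* and *Cry1* were at 54.7 and 20.1 CPM against 21.5 and 18.3.

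Several genes with the largest ratios stood in none of the lists. *Syndig1l* was at 88 CPM (74.1 to 104) against 0.067, *Uncx*, a homeobox gene, at 69.8 against 0.0586, and *Tal2*, a factor of midbrain neurons, at 80.5 against 0.0921. *Cabp5*, a calcium binding protein of retinal neurons, was at 109 CPM, *Sall1* at 142, *Celf3*, a splicing factor of neurons, at 165 and *Ap3b2*, an adaptor subunit of neurons, at 83.6. *Krt18*, an epithelial keratin, was at 149 CPM against 0.251, and *Pgc*, which encodes the stomach protease progastricsin, at 91.8 against 0.126 with UMIs in 62.5% of the cells. The long RNA *Otx2os1* was at 160 CPM against 0.126; it lies on the strand opposite *Otx2*, a rule gene. *E530001K10Rik* was at 94.3 CPM against 0.134.

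Outside the 96 cells, 9 kept E17.5 cells held at least 4 UMIs of *Tph1*, and all 9 held at least 5 UMIs of *Cpa3*, a mast cell protease. *Cpa3* was found at that level in 35 cells, with *Tph1* at 354 CPM. In all kept E17.5 cells outside the 96, the *Cpa3* cells included, *Tph1* had 13 UMIs in suffix 1, 134 in suffix 2 and 225 in suffix 3. Of these UMIs, 89 lay in the 35 *Cpa3* cells.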
